A study of Mus musculus with 44 samples.

Results

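Trbd1 and Trbd2 are the 2 diversity (D) genes of the mouse T cell receptor β locus. Their use was read from the CDR3, the stretch of the β chain that spans the V, D and J junctions, in TCR sequencing of 44 B16F10 melanoma tumours. A CDR3 entered when it ended in the residues of 1 of 12 joining (J) genes and was given a D signature when, after residue 4 and before that ending, it held GQG or DRG (Trbd1 frames) or GLG or DWG (Trbd2 frames), but not both kinds. Of 170818 entries of a CDR3 in a tumour, 95913 ended in a J1 or J2 gene, and 14512 of these carried a signature, 5411 of Trbd1 and 9101 of Trbd2. These were 4134 and 6145 distinct CDR3s among 72765 with a J ending. A further 33 entries held motifs of both kinds and were left out of both classes. The tumours grew subcutaneously in WT mice of the strain labelled C57BL/6 (C57BL/6J in the methods) and were taken on day 12: 15 from mice given AC484 (an inhibitor of the phosphatases PTPN2 and PTPN1), 15 from mice given aPD-1 (an antibody to the checkpoint receptor PD-1) and 14 labelled Vehicle, which the methods call untreated. Each tumour gave 1 library, made from RNA of bulk tissue, so that fewer T cells and less receptor RNA per cell cannot be told apart.

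A β chain gene is assembled in the thymus by joining a D to a J segment and then a V segment to the D, with bases trimmed from the ends and random bases added at each junction. In the locus Trbd1 lies before the J1 cluster and Trbc1, and Trbd2 after them and before the J2 cluster and Trbc2. Deletional joining can therefore bring Trbd1 to either J cluster, but Trbd2 only to J2. A D gene can be read in all 3 frames, which is why each gene leaves several residue patterns.

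Both genes are shown with the recombination signals that flank them, because the motifs are read from their few bases. Trbd1 is a segment of 12 bases at chr6:41533201-41533212 and Trbd2 one of 14 bases at chr6:41542163-41542176, both on the plus strand of GRCm38. They are printed 5′ to 3′ with 28 bases before and 39 bases after, and capitals mark the D segment.
Trbd1: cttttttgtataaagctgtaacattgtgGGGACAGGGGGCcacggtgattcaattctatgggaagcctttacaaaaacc
Trbd2: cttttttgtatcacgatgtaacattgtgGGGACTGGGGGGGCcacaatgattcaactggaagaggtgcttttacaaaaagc
Translated in frames 1, 2 and 3, Trbd1 read GTGG, GQG and DRG, and Trbd2 read GTGG, GLGG and DWGG. The first frame starts alike in both genes and names neither, so GTG was counted apart. The 12 endings used here all matched the translated germline J genes, which begin 651 to 2341 bases after Trbd1 for J1 and 577 to 1633 bases after Trbd2 for J2.

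The libraries differed in depth. AC484 tumours held 1971 to 8300 CDR3s with a J ending (median 2985), aPD-1 tumours 698 to 3499 (median 2075) and Vehicle tumours 108 to 1383 (median 483). J1 and J2 reads came to 32948 to 407156 in AC484 tumours, 58534 to 399662 in aPD-1 tumours and 5060 to 188185 in Vehicle tumours. Index primer set 1 held 12 Vehicle tumours, set 2 held 10 aPD-1 and 2 Vehicle tumours, set 3 held 7 AC484 and 5 aPD-1 tumours and set 4 held 8 AC484 tumours, so AC484 and Vehicle tumours never shared a set. Shares below are of distinct CDR3s in a tumour, each counted once whatever its reads, unless reads are named.

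The Trbd2 signature lay almost wholly in the J2 cluster, and the Trbd1 signature was spread over both. Trbd2 made up 77.8% of the signature entries that ended in a J2 gene (8948 of 11500) and 5.08% of those that ended in a J1 gene (153 of 3012). These shares do not read the genes alike. The germline Trbd2 frames run on past the motif, while the Trbd1 frames end with it. When GLGG or DWGG was required, 3378 Trbd2 entries were left, beside 5437 of Trbd1. Seen from the D gene, 98.3% of Trbd2 entries ended in J2 and 1.68% in J1, while Trbd1 entries divided into 47.2% with J2 and 52.8% with J1. Of all entries with a J ending, 65.7% were J2 and 34.3% J1.

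The same contrast held within tumours. Among the signature CDR3s of J2, the Trbd2 share was 72.5 to 81.0% in AC484 tumours (median 77.6%), 75.8 to 85.5% in aPD-1 tumours (median 78.5%) and 64.0 to 82.0% in Vehicle tumours (median 78.3%). Among those of J1 it was 1.82 to 8.24% in AC484 tumours (median 3.70%), 0 to 10.6% in aPD-1 tumours (median 5.26%) and 0 to 9.09% in Vehicle tumours (median 0%). No J1 value reached the lowest J2 value in any group. The J2 share exceeded the J1 share in 42 of the 42 tumours with at least 5 signature CDR3s in each cluster, by 73.8 percentage points on average (95% interval 72.3 to 75.3; sign-flip permutation test, adjusted p = 1.2e-05 over 7 within-tumour tests, which follows from the smallest p that 100000 resamples can give, 1e-05). The difference was 56.4 percentage points when GLGG or DWGG was required. Deletional joining can bring Trbd2 only to J2, so the direction was known beforehand and the p-value adds little to it.

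**Figure D1:**
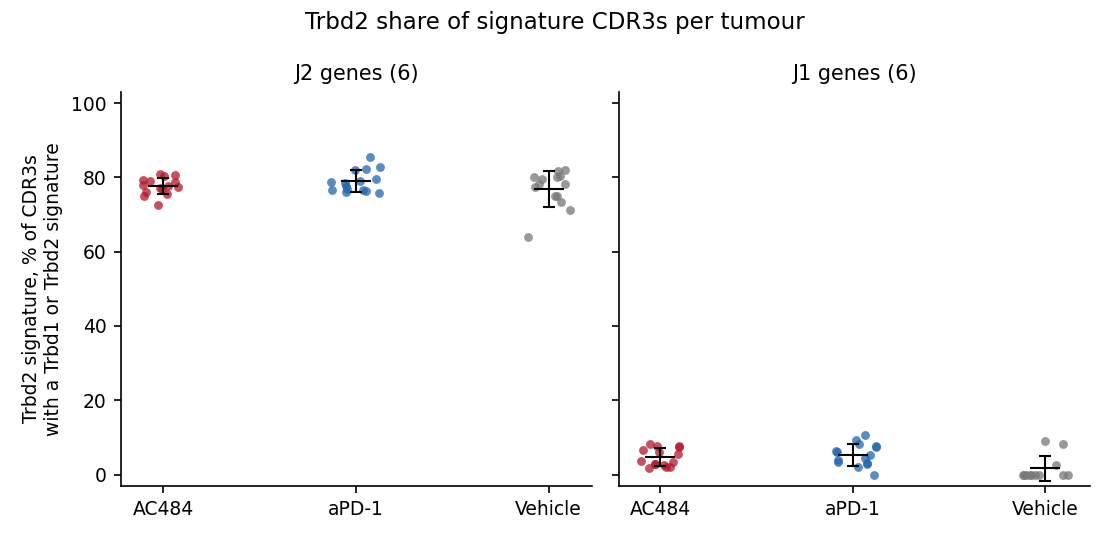
Trbd2 share of the CDR3s with a Trbd1 or Trbd2 signature (percent) in each tumour, for J2 genes on the left and J1 genes on the right. Points are tumours, and bars give the mean and SD. The J2 values lie between 64.0 and 85.5% in the 3 groups, and no J1 value exceeds 10.6%.

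As a share of all CDR3s of a cluster, the Trbd2 signature stood at 14.3% ± 1.60 of J2 CDR3s and 0.390% ± 0.350 of J1 CDR3s (SD, n = 44). The difference of 13.9 percentage points had the same sign in 44 tumours (95% interval 13.4 to 14.4, adjusted p = 1.2e-05), and it was 5.41 percentage points when GLGG or DWGG was required. Its direction was also known beforehand from the order of the locus. The Trbd1 signature stood at 8.71% ± 1.90 of J1 CDR3s and 4.08% ± 0.843 of J2 CDR3s. It was the higher in J1 in 43 of 44 tumours, by 4.63 percentage points (95% interval 4.07 to 5.19, adjusted p = 1.2e-05). The exception was a Vehicle tumour at -0.751 percentage points. The GTG frame, which both D genes can give, was held by 4.08% ± 0.841 of J2 CDR3s and 3.91% ± 1.17 of J1 CDR3s.

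The single J genes followed their cluster. The Trbd1 signature was held by 6.31% of the CDR3s of Trbj1-5 at the lowest and by 10.5% of those of Trbj1-4 at the highest in J1 (means over tumours), and by 3.08% for Trbj2-4 to 5.82% for Trbj2-2 in J2. The Trbd2 signature was held by 0.138% for Trbj1-6 to 0.974% for Trbj1-3 in J1, and by 10.1% for Trbj2-2 to 15.7% for Trbj2-7 in J2. Trbj2-2 was the J2 gene with the most Trbd1 and the least Trbd2.

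**Figure D2:**
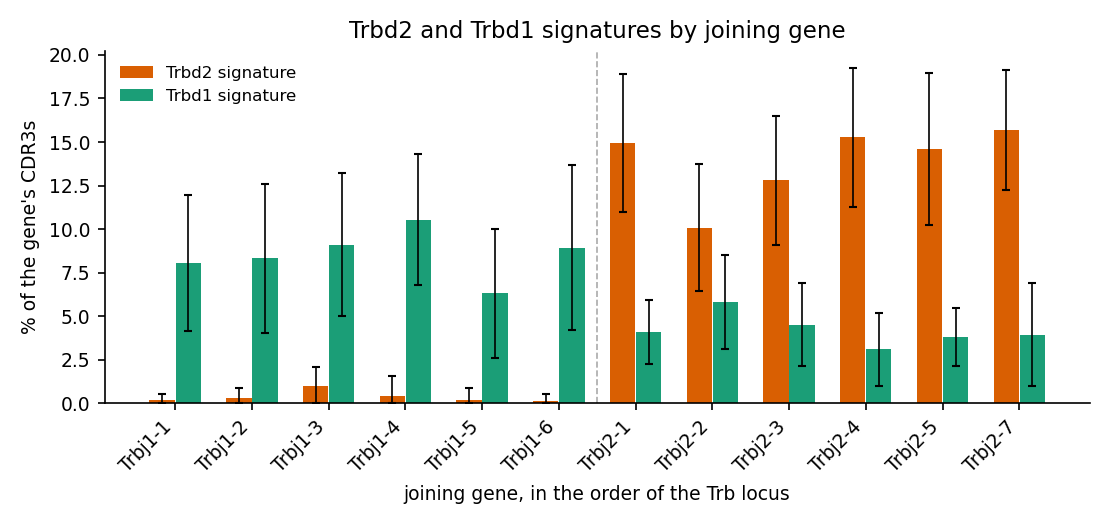
Percent of the CDR3s of each joining gene with the Trbd2 or Trbd1 signature, mean over tumours with at least 5 CDR3s of that gene, in the order of the locus. Error bars are the SD over tumours, cut at 0. The Trbd2 bars stand between 10.1 and 15.7% in J2 and under 1% in J1, and the Trbd1 bars are lower in J2 than in J1.

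Within J2 the Trbd2 share of signature CDR3s ran from 63.9% ± 11.9 in Trbj2-2 (n = 38 tumours), through 76.4% ± 10.3 in Trbj2-3 (n = 39), 77.7% ± 7.54 in Trbj2-1 (n = 40), 79.5% ± 7.64 in Trbj2-5 (n = 42) and 80.6% ± 9.32 in Trbj2-7 (n = 43), to 83.4% ± 8.59 in Trbj2-4 (n = 42). Of the 15 pairs of J2 genes, 7 differed within tumours (sign-flip permutation tests, chosen after seeing the data, adjusted p under 0.05 over the pairs). All 5 pairs with Trbj2-2 were among them, each at an adjusted p of 3e-05, and the gap to Trbj2-1, the gene before it in the locus, was 13.4 percentage points. The other 2 pairs placed Trbj2-1 (difference -5.21 percentage points, adjusted p = 0.012) and Trbj2-3 (-6.53 percentage points, adjusted p = 0.016) below Trbj2-4. Neighbours in the order from Trbj2-3 up to Trbj2-4 did not differ beyond their spread, with adjusted p-values of 0.58, 0.33, 0.21 and 0.3.

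The few Trbd2 signatures with a J1 ending gathered in 1 gene. Trbj1-3 held 72 of the 153, or 47.1%, against 17.4% of all J1 entries, and without it Trbd2 made up 3.26% of the J1 signature entries (81 of 2482). The germline sequences of Trbj1-3 and of the J2 gene closest to it in its residues, Trbj2-4, are shown up to the phenylalanine that ends the CDR3, with capitals for the codon of the first residue of the ending, which reads GNTLYF in Trbj1-3 and QNTLYF in Trbj2-4 (GRCm38, chr6:41534323-41534376 and chr6:41543362-41543410, plus strand).
Trbj1-3: ttctGGAaatacgctctatttt
Trbj2-4: agtCAAaacaccttgtacttt
The endings differ in that residue alone, which the capitals show. In germline Trbj1-3 a serine comes before it. That serine was present in 15.3% of the Trbd2 entries of Trbj1-3 (11 of 72), in 43.2% of its Trbd1 entries and in 60.9% of its entries with no signature. A glycine stood in its place in 48.6% of the Trbd2 entries, 78 of the 458 Trbd1 entries and 7.55% of those with no signature. No nucleotides were used here, so in these letters a CDR3 with GNTLYF from Trbj1-3 and one from a Trbj2-4 whose first codons were trimmed away cannot be told apart. When the glycine of the ending was also allowed to close the motif, Trbj1-3 held 148 Trbd2 entries and 500 Trbd1 entries, against 72 and 458 by the main rule.

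Where in the CDR3 the motif began also differed. In J2, DWG started at residue 5 in 1710 of its 6098 entries, at residue 6 in 46.4% and at residue 7 in 20.7%. GLG started there in 15.9%, 57.0% and 22.6% of its 2857 entries. In J1, DWG started at residue 5 in 55.9% of 111 entries. At that position the aspartate can belong to the V gene, since Trbv13-2 ends in CASGD and Trbv13-1 and Trbv13-3 end in CASSD in the germline. Of the 62 J1 entries with DWG at residue 5, 18 began with CASGD, 21 with CASSD and 20 with CGARD, where CGAR is the germline end of Trbv20. Limited to motifs at residue 6 or later, Trbd2 made up 77.1% of the J2 and 3.64% of the J1 signature entries.

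The motifs of each gene's frames were not equally frequent. Motif counts are not frame use alone, since the aspartate of DWG or DRG at residue 5 can belong to the V gene. In J2, DWG was held by 9.68% ± 1.12 of the CDR3s and GLG by 4.64% ± 0.901 (SD, n = 44), and GLG was the lower in 43 of 44 tumours. The difference, GLG minus DWG, was -5.05 percentage points on average (95% interval -5.42 to -4.67, adjusted p = 1.2e-05). It was smaller by other rules, at -2.87 percentage points with motifs at residue 6 or later, -1.65 when GLGG or DWGG was required and -3.03 when weighted by reads (adjusted p = 0.017), with the same sign in each. The Trbd1 motifs were closer to each other in frequency. GQG was held by 3.13% ± 0.569 of J1 and J2 CDR3s and DRG by 2.57% ± 0.680. GQG was the higher in 34 tumours and the lower in 6, by 0.556 percentage points (95% interval 0.329 to 0.783, adjusted p = 1.2e-05). This was 0.327 percentage points with possible carry-over between libraries left out (adjusted p = 0.028) and 2.50 when weighted by reads. By cluster, GQG stood at 4.91% ± 1.12 in J1 and 2.19% ± 0.705 in J2, and DRG at 3.83% ± 1.11 in J1 and 1.90% ± 0.595 in J2. In J2 the order of the means was not the same in each group. GQG and DRG stood there at 2.04% and 2.09% in AC484, 1.83% and 1.96% in aPD-1 and 2.74% and 1.65% in Vehicle tumours. Over J1 and J2, GQG minus DRG averaged 0.364 percentage points in AC484, 0.258 in aPD-1 and 1.08 in Vehicle tumours.

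**Figure D3:**
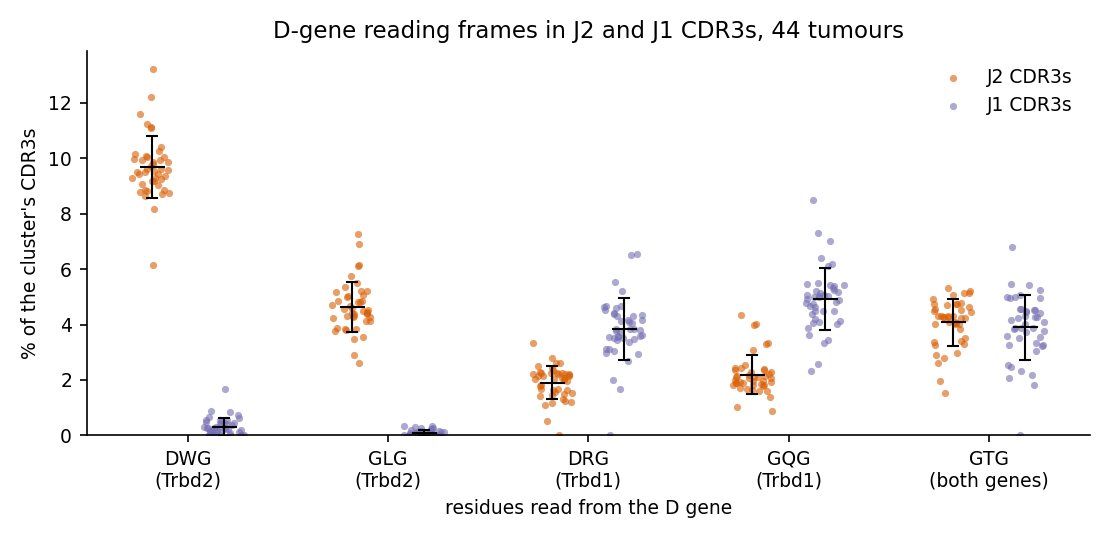
Percent of the J2 or J1 CDR3s of each tumour that hold each D motif, with 44 points per column and bars for the mean and SD. DWG and GLG lie well above 0 in J2 only, GQG and DRG are higher in J1 than in J2, and GTG, read from both D genes, lies near 4% in both clusters.

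The residues beside the motifs differed with the D gene and with the frame. A glycine followed GLG in 41.4% of J2 entries and DWG in 35.4%, the last residue of the germline Trbd2 frames. It followed GQG in 10.0% and DRG in 11.9% of J2 entries, where the germline Trbd1 frames end with the motif. Before the motif, proline was the most frequent residue for GQG (28.7% in J2, 29.1% in J1) and for GLG (26.5% in J2), and arginine for DRG (30.2% in J2, 33.3% in J1) and for DWG (34.8% in J2). In J2 the motifs of the second frame of both genes had proline as leading neighbour, and those of the third frame arginine. Proline is in none of the translated germline D frames. Before the 42 GLG entries of J1, arginine led at 23.8%. CDR3s with the Trbd2 signature were also longer. In J2 they averaged 15.0 ± 0.163 residues with Trbd2 and 14.6 ± 0.229 with Trbd1 (SD over 42 tumours). The difference was 0.397 residues (95% interval 0.307 to 0.486, longer in 39 of 42 tumours, sign-flip permutation test, adjusted p = 1.2e-05). It was 0.726 residues when GLGG or DWGG was required, but that rule lengthens the motif for Trbd2 only and so favours longer CDR3s.

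The Trbd2 share also differed with the V end of the CDR3. CAW, the germline start of Trbv31, the V gene that lies downstream of both J clusters in the opposite orientation, marked CDR3s with a Trbd2 share in J2 of 89.0% ± 13.5 (SD, n = 29 tumours), against 77.7% ± 2.36 for all other starts in the same tumours. The difference was 11.3 percentage points (95% interval 6.04 to 16.5, higher in 23 of 29 tumours, adjusted p = 0.00026). The CAW share was the higher in 9 of 15 AC484 tumours (mean 84.7%), 12 of 12 aPD-1 tumours (mean 93.9%) and 2 of 2 Vehicle tumours (mean 91.7%), so that all 6 exceptions were AC484 tumours. The other tumours held fewer than 5 such CDR3s. Between treatments, the CAW difference in AC484 minus that in aPD-1 tumours was -8.54 percentage points (permutation test, adjusted p = 0.54), which did not pass the threshold. CDR3s starting with CGA, the start of Trbv20, reached 91.9% ± 6.90 (n = 38), and 92.3% of their Trbd2 entries in J2 were in the DWG frame. Those starting with CAS stood at 76.4% ± 4.18 (n = 44) and those with CTC at 71.5% ± 12.7 (n = 34). Among all J2 entries starting with CGA, 29.8% held the Trbd2 signature, against 13.6% of those starting with CAS and 14.0% of those starting with CAW. The Trbd1 signature was held by 1.64% of J2 entries starting with CAW, against 4.14% of those starting with CAS.

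**Figure D4:**
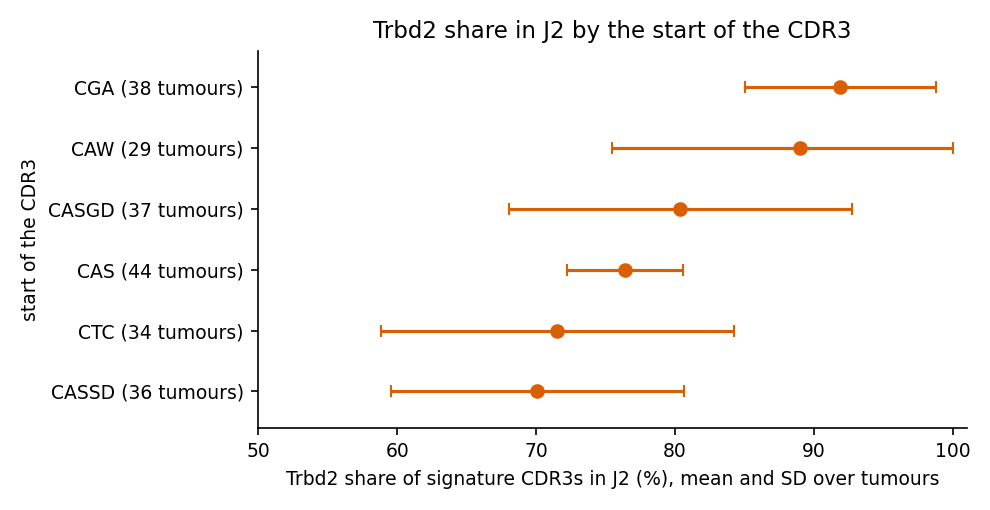
Trbd2 share of signature CDR3s in J2 by the first residues of the CDR3, mean and SD over tumours with at least 5 such CDR3s, error bars cut at 100% and the axis starting at 50%. CAS includes CASGD and CASSD. CGA and CAW starts lie highest, at 91.9 and 89.0%.

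The same residues were also found in several tumours. Of 6011 distinct Trbd2-J2 CDR3s, 19.1% were in at least 2 tumours and 55 in at least 10. For Trbd1-J1 this was 316 CDR3s (14.5%) and 7 CDR3s, and for Trbd1-J2 14.8% of 1952 and 7 CDR3s. The 134 Trbd2-J1 CDR3s were in at most 4 tumours, 10.4% of them in at least 2. CDR3s with no signature stood at 15.1% in J2 and 14.5% in J1. Within Trbd2-J2, 21.1% of DWG and 15.5% of GLG CDR3s were in at least 2 tumours. These shares are descriptions, since deeper libraries and larger groups find more shared CDR3s, and they were not tested.

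CDR3s of up to 14 residues that were found in the most tumours are shown for each class, so that the motif can be read between the V start and the J ending.
Trbd2-J2: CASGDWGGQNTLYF
Trbd2-J2: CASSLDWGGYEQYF
Trbd1-J2: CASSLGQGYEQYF
Trbd1-J2: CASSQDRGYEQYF
Trbd1-J1: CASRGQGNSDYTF
Trbd1-J1: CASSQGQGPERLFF
Trbd2-J1: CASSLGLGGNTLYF
Trbd2-J1: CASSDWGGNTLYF
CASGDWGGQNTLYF, with Trbj2-4, was in 5 AC484, 8 aPD-1 and 5 Vehicle tumours at 1 to 230 reads (median 9). Its DWG starts at residue 5, with the aspartate that Trbv13-2 also carries. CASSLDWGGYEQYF, with Trbj2-7, was in 10 AC484, 4 aPD-1 and 4 Vehicle tumours at 1 to 261 reads (median 9.5). Neither passed 0.330% of a tumour's J1 and J2 reads. Both Trbd1-J2 CDR3s end in YEQYF of Trbj2-7 too. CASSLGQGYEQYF was in 2 AC484, 5 aPD-1 and 8 Vehicle tumours at 1 to 8812 reads (median 2), and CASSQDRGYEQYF in 5 AC484, 8 aPD-1 and 2 Vehicle tumours at 1 to 88 reads (median 18). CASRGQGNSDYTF, with Trbj1-2, was in 8 AC484, 12 aPD-1 and 1 Vehicle tumour at 1 to 28871 reads (median 5). Some shared CDR3s were large clones in 1 tumour. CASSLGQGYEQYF made up 11.8% of the reads of 1 Vehicle tumour, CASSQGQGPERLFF (Trbj1-4, in 10 tumours) 14.8% of those of 1 aPD-1 tumour, and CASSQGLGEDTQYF (Trbd2-J2, Trbj2-5, in 16 tumours) 7.20% of those of 1 AC484 tumour. The most abundant Trbd2-J1 CDR3 of that length, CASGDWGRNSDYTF, reached 0.0632% with 37 reads in 1 aPD-1 tumour. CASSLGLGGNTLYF, the Trbd2-J1 CDR3 of that length in the most tumours, was in 3 AC484 tumours at 2 to 7 reads. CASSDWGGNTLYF, the next, was in 1 AC484 and 1 aPD-1 tumour at 7 to 28 reads. Its DWG starts at residue 5, with the aspartate that Trbv13-1 and Trbv13-3 also carry. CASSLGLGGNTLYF and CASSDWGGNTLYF both end in GNTLYF, counted here as Trbj1-3, although a trimmed Trbj2-4 cannot be told apart from it.

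Weighted by reads, the spread between tumours was wide. The Trbd2 signature took 2.18 to 12.0% of J1 and J2 reads in AC484 tumours (median 4.93%), 2.01 to 19.6% in aPD-1 tumours (median 4.37%) and 1.14 to 14.2% in Vehicle tumours (median 4.70%). The Trbd1 signature took 1.17 to 10.3% in AC484 tumours (median 4.78%), 1.15 to 19.96% in aPD-1 tumours (median 6.06%) and 0.166 to 14.4% in Vehicle tumours (median 1.75%). The ranges of the 3 groups overlapped for both genes. A Trbd1 clone of at least 1% of a tumour's reads was present in 27 of 44 tumours and a Trbd2 clone of that size in 23. Among J1 reads as a whole Trbd1 took 11.4% and Trbd2 0.118%, and among J2 reads Trbd1 took 3.41% and Trbd2 11.1%.

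The treatments were then compared for 7 shares of distinct CDR3s, with 21 permutation tests. None passed an adjusted p of 0.05, 2 had an unadjusted p under 0.05, and the smallest adjusted p was 0.43. The Trbd2 share of signature CDR3s in J2 averaged 77.7% ± 2.27 in AC484 tumours (n = 15), 79.0% ± 2.94 in aPD-1 tumours (n = 15) and 76.9% ± 4.90 in Vehicle tumours (n = 14). AC484 differed from Vehicle by 0.783 percentage points (95% interval -2.23 to 3.80, permutation test, adjusted p = 0.83) and from aPD-1 by -1.28 percentage points (95% interval -3.25 to 0.691, adjusted p = 0.58). aPD-1 differed from Vehicle by 2.06 percentage points (95% interval -1.08 to 5.21, adjusted p = 0.58). The intervals leave room for differences of a few percentage points in either direction. Within index set 2, with 2 Vehicle tumours, aPD-1 stood at 78.5% and Vehicle at 81.9%, the opposite order (exact permutation p = 0.12), and within set 3 AC484 stood at 78.1% and aPD-1 at 79.9% (exact permutation p = 0.31).

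The other 6 shares also gave no adjusted p under 0.05, with differences of different size. The Trbd1 signature stood at 8.61% ± 0.810 of J1 CDR3s in AC484 tumours, 8.75% ± 0.788 in aPD-1 tumours and 8.78% ± 3.24 in Vehicle tumours. In J2 the Trbd1 signature stood at 4.11% ± 0.395 of CDR3s in AC484 tumours, 3.77% ± 0.664 in aPD-1 tumours and 4.39% ± 1.22 in Vehicle tumours. The Trbd2 signature stood at 14.3% ± 1.28 of J2 CDR3s in AC484 tumours, 14.1% ± 0.647 in aPD-1 tumours and 14.5% ± 2.48 in Vehicle tumours. J1 took 52.1% ± 4.54 of Trbd1-signature CDR3s in AC484 tumours, 55.3% ± 5.29 in aPD-1 tumours and 52.4% ± 8.30 in Vehicle tumours (n = 13), and AC484 lay below aPD-1 there, with a difference of -3.23 percentage points (adjusted p = 0.43, 95% interval -6.92 to 0.460). With the differences of index sets 3 and 2 summed to link AC484 to Vehicle, a setting chosen after seeing the data that rests on 2 Vehicle tumours, the AC484 minus Vehicle difference was -2.13 percentage points for the Trbd1 share of J1 and -12.9 for the J1 share of Trbd1 (adjusted p = 0.046 each). The GLG share of Trbd2-J2 CDR3s with 1 frame stood at 31.5% ± 1.83 in AC484 tumours, 32.3% ± 3.48 in aPD-1 tumours and 33.1% ± 7.11 in Vehicle tumours. For each share the spread was widest in Vehicle tumours, which held the fewest CDR3s. The furthest apart was the GQG share of Trbd1 CDR3s with 1 frame, at 53.2% ± 3.00 in AC484 tumours, 52.5% ± 3.55 in aPD-1 tumours and 58.4% ± 9.25 in Vehicle tumours (n = 13). The AC484 mean was 5.13 percentage points below the Vehicle mean (95% interval of the difference -10.9 to 0.611, adjusted p = 0.43) and the aPD-1 mean 5.92 percentage points below it (95% interval of the difference -11.7 to -0.113, adjusted p = 0.43). Without Trbj1-3 and Trbj2-4, a setting chosen after seeing the data, these differences were -10.5 (adjusted p = 0.0084) and -9.81 percentage points (adjusted p = 0.019). With at least 20 CDR3s in each denominator they were -2.26 (adjusted p = 0.73) and -3.04 percentage points (adjusted p = 0.68), and with possible carry-over left out -2.25 (adjusted p = 0.98) and -4.55 percentage points (adjusted p = 0.8). The 7 within-tumour contrasts, compared between treatments in 19 tests, gave no adjusted p under 0.05. Unadjusted, 2 were under 0.05, both for GQG minus DRG, with AC484 and with aPD-1 against Vehicle.

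D signature and J gene were also tested together, as 36 features (Trbd1, Trbd2 or no signature with each J gene) counted in distinct CDR3s with edgeR's quasi-likelihood test, relative to a tumour's total. All 6 Trbd2-J1 features and 4 others were too sparse, which left 26. Between AC484 and Vehicle, 1 of the 26 passed an adjusted p of 0.05 (3.85%), Trbd1 with Trbj1-3. Between AC484 and aPD-1, 3 passed (11.5%), of which 1 carried a signature, Trbd1 with Trbj2-5. Between aPD-1 and Vehicle none passed (0%), with 2 at an unadjusted p under 0.05. DESeq2 called 1 there, Trbd1 with Trbj2-5, and edgeR called 1 when Vehicle replicate 6, aPD-1 replicate 8 or aPD-1 replicate 12 was left out. No Trbd2 feature passed in any comparison.

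Trbd1 with Trbj1-3 made up 0.136 to 0.536% of J1 and J2 CDR3s in AC484 tumours (median 0.398%), 0.263 to 0.753% in aPD-1 tumours (median 0.543%) and 0 to 1.90% in Vehicle tumours (median 0.724%). The groups overlapped, with AC484 at the low end. AC484 lay below Vehicle by a log2 fold change of -0.97 (adjusted p = 0.00055), between -1.11 and -0.82 with each tumour left out in turn (adjusted p 7.6e-05 to 0.031, the highest without Vehicle replicate 11). The log2 fold change was -0.38 for AC484 over aPD-1 (adjusted p = 0.12) and -0.59 for aPD-1 over Vehicle (adjusted p = 0.14). Within set 3 the mean was 0.350% in 7 AC484 and 0.528% in 5 aPD-1 tumours, and within set 2 it was 0.539% in 10 aPD-1 and 0.711% in 2 Vehicle tumours.

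A group of like CDR3s stood out in this feature when its members were read, and it was chosen after its values were seen. They start with CASSF, the germline start of Trbv14, have any residue at position 6, hold DRG at residue 7 and end in GNTLYF. There were 72 entries of 41 distinct CDR3s in 29 tumours, all of 16 or 17 residues, out of 458 Trbd1 entries with Trbj1-3. Residue 6 took 11 different residues, with arginine in 41 entries. The same start and motif occurred in 41 entries over the other 11 J genes together, although CASSF starts 247 entries of Trbj1-3 and 3184 of the others. The group was found in 5 of 15 AC484 tumours (5 entries, 17 reads), 12 of 15 aPD-1 tumours (37 entries, 730 reads) and 12 of 14 Vehicle tumours (30 entries, 745 reads), with at most 143 reads for a CDR3 in a tumour. As a share of CDR3s it came to 0.00878% ± 0.0146 in AC484 tumours, 0.109% ± 0.0746 in aPD-1 tumours and 0.383% ± 0.275 in Vehicle tumours. These shares are relative to a tumour's CDR3s, with medians of 2985 in AC484, 2075 in aPD-1 and 483 in Vehicle tumours. An entry counts for more of the share in a Vehicle tumour. The AC484 tumours also held the fewest entries and reads of the group, as given above. Whether depth contributes to the difference was not tested. By reads the medians were 0% in AC484 tumours, 0.0185% in aPD-1 tumours and 0.117% in Vehicle tumours. Within set 3 it was present in 3 of 7 AC484 and 3 of 5 aPD-1 tumours, at means of 0.0132% and 0.106%. Within set 2 it was present in 9 of 10 aPD-1 and 2 of 2 Vehicle tumours, at means of 0.110% and 0.321%. The remaining Trbd1 CDR3s of Trbj1-3 made up 0.374% ± 0.108 in AC484 tumours, 0.427% ± 0.142 in aPD-1 tumours and 0.406% ± 0.383 in Vehicle tumours. No test was run on this group, because it was chosen from these values.

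**Figure D5:**
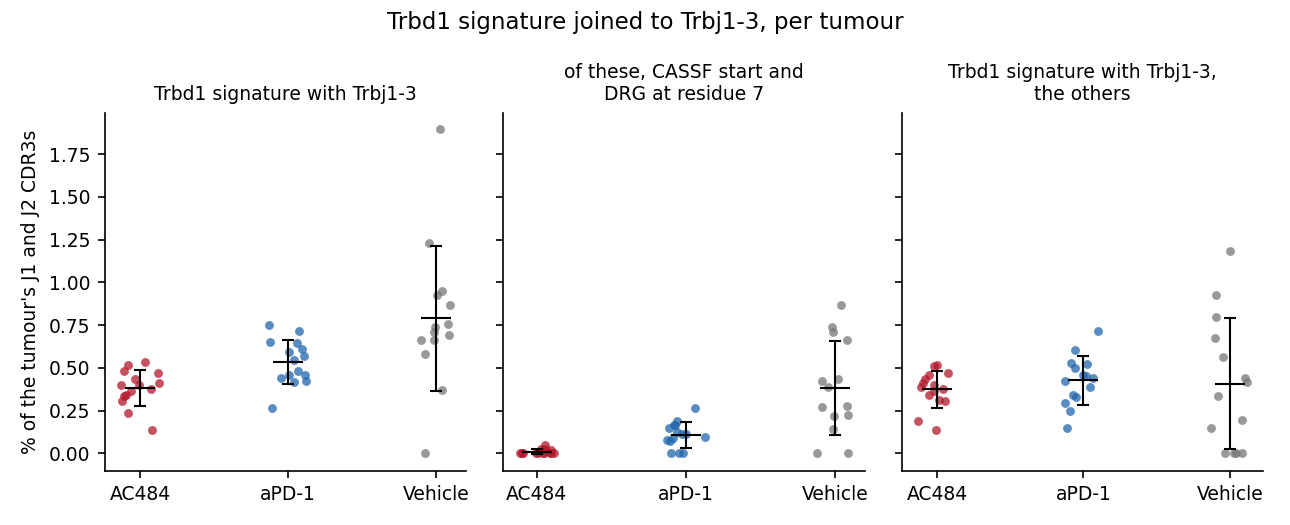
Share of a tumour's J1 and J2 CDR3s (percent) with the Trbd1 signature and Trbj1-3 on the left, those of them with a CASSF start and DRG at residue 7 in the middle, and the others on the right. Points are tumours, and bars give the mean and SD. The means of the middle panel are 0.00878% in AC484, 0.109% in aPD-1 and 0.383% in Vehicle tumours, and those of the right panel 0.374%, 0.427% and 0.406%.

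Trbd1 with Trbj2-5 made up 0.377 to 0.753% of J1 and J2 CDR3s in AC484 tumours (median 0.564%), 0 to 0.529% in aPD-1 tumours (median 0.367%) and 0 to 0.926% in Vehicle tumours (median 0.524%). The aPD-1 tumours lay lowest, with overlap. AC484 lay above aPD-1 by a log2 fold change of 0.65 (adjusted p = 0.0041), and with each tumour left out in turn the adjusted p was 0.0018 to 0.012. Counting only CDR3s with at least 2 reads, this feature was too sparse and was not among the 22 tested. Within set 3 the means were 0.590% in 7 AC484 and 0.233% in 5 aPD-1 tumours. Trbd2 with the same J gene stood at 1.71% ± 0.304 in AC484 tumours, 1.91% ± 0.367 in aPD-1 tumours and 1.94% ± 1.10 in Vehicle tumours, with a log2 fold change of -0.17 for AC484 over aPD-1 (adjusted p = 0.17). The other 2 features past the threshold between AC484 and aPD-1 had no signature: Trbj2-5 at a log2 fold change of -0.12 (adjusted p = 0.0063) and Trbj2-1 at 0.10 (adjusted p = 0.02). The Trbj2-1 call was lost without AC484 replicate 7 or without aPD-1 replicate 14, and with TMM factors (log2 fold change 0.10, adjusted p = 0.11).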

How the data were processed

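T cell receptor sequencing of 44 B16 tumours (15 AC484, 15 aPD-1, 14 Vehicle) was used. The authors made the libraries with a SMARTer kit for mouse TCR chains, ran them on an Illumina MiSeq and used MiXCR to collect the reads into clonotypes by their amino acids. The submitters' notes name the build mm10, which is GRCm38. The deposited values are whole read counts per CDR3 and tumour, not brought to equal depth. V, D and J calls, chain and nucleotides were not used here. The deposited table also names 1 of 4 index primer sets for each tumour, as text, and a clone proportion that was not used.

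D signatures were assigned from residues alone, so trimmed D genes, the GTG frame and random residues that spell a motif go unseen or are misread. Reads carry no molecular identifiers, so CDR3s were counted once per tumour. A share needed at least 5 CDR3s in its denominator. Within-tumour contrasts were tested by two-sided sign-flip permutation, with 95% t intervals of the mean within-tumour difference. Treatments were tested by two-sided permutation of the difference of means, with Welch-type 95% intervals. Each used 100000 resamples, with Benjamini-Hochberg adjustment over 7 and 21 tests. Features were tested with edgeR 4.0.16 on all 3 groups in 1 fit, with the tumour's total as offset and filterByExpr. DESeq2 1.42.0 was an alternative. The p-values measure the spread between tumours. The matching of motifs and endings was run on simulated CDR3s with whole planted motifs, where 2000 of 2000 were classified as made. These held no trimmed D genes, V residues within a motif or random residues. They therefore do not show how often a D gene is assigned correctly in real CDR3s. No 2 libraries were copies: at most 4.04% of the smaller library's CDR3s had the same count in another, and at most 21.5% were in another at any count.

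The members, lists and tests were chosen with earlier results of these data known. Named are both D genes, the 12 J genes, features past the threshold (at most 10 per comparison) and, of each class, among CDR3s of up to 14 residues, the 2 found in the most tumours and the 1 with the largest share of a tumour's reads. Sequences of D and J genes were read from the RefSeq genome of GRCm38.p6 at the GENCODE vM21 positions. For the shares and contrasts, alternatives were equal depth (100 draws of 5060 reads), read and carry-over filters and other motif rules. Weighting by reads, other tests and index sets were also used there. The features were refitted with DESeq2, TMM factors, no filter, at least 2 reads, the replicate number as a block and each tumour left out. They were not refitted at equal depth, with carry-over left out or with other motif rules. Permutations ran in NumPy 2.4.6 and intervals in SciPy 1.17.1 under Python 3.11.15, with tables read in pandas 2.3.3, and edgeR and DESeq2 under R 4.3.3.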

Additional observations from a re-analysis of the deposited data

How the results depend on the processing

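All values here are differences in percentage points unless counts are named. The 7 within-tumour contrasts kept their direction and stayed past the threshold under each of the 82 alternatives run. The Trbd2 share in J2 minus J1 ranged over 56.4 to 74.4, lowest when GLGG or DWGG was required, and over 73.6 to 74.0 with each tumour left out in turn. The GQG minus DRG difference ranged over 0.327 to 2.50 and the CAW difference over 9.10 to 19.2.

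None of the 21 treatment differences passed the threshold as reported. Of 294 alternatives, 245 gave the same direction and side of the threshold, 45 turned the direction without passing it and 4 passed it. Adjusted p-values over all 294 ran from 0.0084 to 0.99. The cause was not tested. The Trbd2 share in J2, AC484 minus Vehicle, turned to -0.607 at equal depth, -0.314 with at least 2 reads, -0.327 without carry-over, -0.707 with GLGG or DWGG and -5.25 with the index-set differences summed. For aPD-1 minus Vehicle it was -3.45 within an index set. The Trbd1 share of J1, AC484 minus Vehicle, was 0.0239 without carry-over, 4.74 by reads and 1.00 without Trbj1-3 and Trbj2-4, and it was -2.13 (adjusted p = 0.046) with the index-set differences summed. For AC484 minus aPD-1 it was 0.00946 with at least 2 reads, 0.109 without carry-over and 0.289 without those J genes. For aPD-1 minus Vehicle it was 10.5 by reads (permutation test, adjusted p = 0.063), 0.712 without those J genes and 0.155 without CGA starts. The Trbd1 share of J2, AC484 minus Vehicle, was 0.147 at equal depth, 0.107 with at least 2 reads and 1.01 with the index-set differences summed, and for aPD-1 minus Vehicle 0.476 within an index set. The Trbd2 share of J2, AC484 minus Vehicle, was 0.0717 at equal depth, 0.0287 with at least 2 reads, 0.164 with motifs from residue 6, 0.0271 without those J genes and 0.0138 without CGA starts. For AC484 minus aPD-1 it was -0.0784 with GLGG or DWGG and -0.0564 by reads. The J1 share of Trbd1, AC484 minus Vehicle, was 0.0531 with motifs from residue 6, 7.07 by reads, 2.75 without those J genes and 0.480 without CGA starts, and it was -12.9 (adjusted p = 0.046) with the index-set differences summed. For aPD-1 minus Vehicle it was -0.909 with at least 2 reads and -6.25 within an index set. The GQG share was -10.5 for AC484 minus Vehicle (adjusted p = 0.0084), -9.81 for aPD-1 minus Vehicle (adjusted p = 0.019) and -0.730 for AC484 minus aPD-1 without those J genes. By reads it was 1.28 for aPD-1 minus Vehicle and -7.11 for AC484 minus aPD-1, and it was -0.781 for AC484 minus aPD-1 within an index set. The GLG share, AC484 minus Vehicle, was 0.0537 with at least 2 reads, 1.60 with GLGG or DWGG and 4.68 by reads. For AC484 minus aPD-1 it was 0.108 with motifs from residue 6, 1.80 with GLGG or DWGG and 12.4 by reads. For aPD-1 minus Vehicle it was 0.267 at equal depth, 1.13 with at least 2 reads and 0.0154 with at least 20 CDR3s in each denominator. The settings without J genes, without CGA starts and with index-set differences summed were chosen after seeing the data, and the sums rest on 2 Vehicle tumours. With each tumour left out, no treatment difference passed the threshold.

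Among the features, DESeq2 called 1 for aPD-1 minus Vehicle, where edgeR called none. With each tumour left out, the calls numbered 1 for AC484 minus Vehicle, 2 to 4 for AC484 minus aPD-1 and 0 to 1 for aPD-1 minus Vehicle. Replicate numbers were not found to pair tumours: same-numbered tumours correlated above 0.1 in 4 of 14, 5 of 15 and 6 of 14 pairs (AC484 with Vehicle, AC484 with aPD-1, aPD-1 with Vehicle). With the replicate number as a block, the calls were 1, 3 and 0 for AC484 minus Vehicle, AC484 minus aPD-1 and aPD-1 minus Vehicle, the Trbd2 share in J2 was 0.577, -1.28 and 2.25, and no call changed. Vehicle libraries, with as few as 108 CDR3s, limit the precision of both comparisons that use them, and AC484 and Vehicle shared no index set, so those cannot be told apart.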
